A study of Homo sapiens with 3 samples.

Results

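The pyruvate dehydrogenase complex and its switch enzymes were examined as 10 genes: the 5 enzyme subunit genes PDHA1, PDHB, DLAT, DLD and PDHX, the 4 kinase genes PDK1, PDK2, PDK3 and PDK4, and the phosphatase gene PDP1. The members were chosen by name, and each was found by its Ensembl identifier, 10 of 62754 genes in the table. RNA-seq was measured in 3 replicates of MCF10A cells, an immortalized and non-tumorigenic line of human breast epithelium. The cells were transduced with the empty vector of the Retro-X Tet-One doxycycline-inducible system, carried no gene of interest, were selected with puromycin, and were harvested without doxycycline or any other treatment. RNA was taken at 27 h after seeding, and all replicates belong to 1 condition and 1 batch. No groups were therefore compared, and the labels do not say whether the replicates are separate cultures, so the spread given here may be technical. The cells are a selected population of 1 line, and in bulk RNA fewer cells that express a gene and less RNA per cell cannot be told apart.

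The complex sits in the mitochondrial matrix and turns pyruvate into acetyl-CoA, which links glycolysis to the tricarboxylic acid cycle. The E1 enzyme decarboxylates pyruvate with thiamine diphosphate, the E2 enzyme carries the acetyl group on a lipoyl arm to coenzyme A, and the E3 enzyme reoxidizes that arm. Pyruvate dehydrogenase kinases phosphorylate E1 and switch the complex off, and the phosphatases remove the phosphate and switch it on again.

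Values are TPM as deposited, a measure of transcript abundance that divides reads by a transcript length and brings every replicate to a total of 1000000. Errors are the SD over the 3 replicates. The TPM values could be turned back into whole reads, which gave 15273329, 15446347 and 11166546 reads, of which the members took 9296, 8824 and 6851. The 10 genes with the highest TPM took 12.7% to 13.1% of the TPM in replicates 1 and 2 and 23.8% in replicate 3, and the median gene was lower in replicate 3 by 0.16 on the log2 scale than the mean of the replicates. The epithelial label was met by the basal markers, of which 6 of 6 were at or above 1 TPM, from 29.1 TPM for CDH1 to 6612 TPM for KRT5. Of 13 markers of other cell types, 3 reached 1 TPM, namely COL1A1 with 4.96 TPM, CD14 with 1.96 TPM and PECAM1 with 1.77 TPM, and 5 had no read.

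Transcripts of the 5 enzyme subunits lay between 48.3 and 94.9 TPM, within 1.97-fold of each other, and the kinase transcripts were lower, at 0.353 to 7.89 TPM. The fold between the highest and the lowest subunit was 2.98 with canonical length and 3.29 with coding length. With other transcript lengths a kinase came closer to the subunits, PDK3 with canonical length and PDK1 with coding length, while PDK2 and PDK4 stayed the lowest members on all 4 scales tried. Of the 10 members, 9 had a mean at or above 1 TPM, against 56.7% of 20046 protein-coding genes. The exception was PDK4. The median level was 30.6 TPM over all 10 members, PDK4 included, and 48.3 TPM over the 9 at or above 1 TPM. The value of 30.6 TPM falls between PDP1 and PDHX, where no member lies. Over the 11360 protein-coding genes at or above 1 TPM the median was 24.9 TPM.

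PDHA1 (ENSG00000131828, hg38 chrX:19343893-19361718, plus strand) encodes the alpha subunit of E1, which carries the serines that the kinases phosphorylate. It had 99.8, 100.1 and 84.7 TPM from 1815, 1871 and 1311 reads. Its mean of 94.9 ± 8.79 TPM was the highest of the members, and 85.4% of protein-coding genes at or above 1 TPM lay below it. Replicates 1 and 2 were close and replicate 3 was lower. PDHB (ENSG00000168291, chr3:58427630-58433857, minus strand) encodes the beta subunit that pairs with it. PDHB had 55.0, 47.3 and 52.0 TPM from 1291, 1142 and 1038 reads, a mean of 51.4 ± 3.86 TPM. Every PDHB replicate was below every PDHA1 replicate in TPM.

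DLAT (ENSG00000150768, chr11:112025408-112064404, plus strand) encodes E2, the acetyltransferase that forms the core of the particle. It had 82.4, 81.1 and 71.2 TPM from 2133, 2160 and 1569 reads, a mean of 78.2 ± 6.12 TPM. PDHX (ENSG00000110435, chr11:34915829-35020591, plus strand) encodes the protein that anchors E3 to this core. PDHX had 53.4, 48.4 and 43.0 TPM from 745, 694 and 511 reads, a mean of 48.3 ± 5.17 TPM, and its replicates did not overlap those of DLAT. DLD (ENSG00000091140, chr7:107891162-107931730, plus strand) encodes E3, which the complex shares with the 2-oxoglutarate and branched-chain dehydrogenases and with the glycine cleavage system. DLD had 100.3, 80.0 and 85.2 TPM from 1862, 1526 and 1346 reads, a mean of 88.5 ± 10.6 TPM. Its replicates overlapped those of PDHA1 and of DLAT.

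PDP1 (ENSG00000164951, chr8:93857807-93926068, plus strand) encodes a catalytic subunit of the phosphatase. It had 14.2, 12.5 and 11.9 TPM from 326, 294 and 233 reads, a mean of 12.9 ± 1.19 TPM, and stood between the subunits and the kinases in TPM. Of protein-coding genes at or above 1 TPM, 31.6% lay below it. The other catalytic subunit gene, PDP2, had 25.2, 24.0 and 23.7 TPM, a mean of 24.3 ± 0.776 TPM. PDP2 was above PDP1 in 3 of 3 replicates, by 0.92 ± 0.09 on the log2 scale of TPM, and remained above it with every transcript length tried, by 0.87 to 1.63. PDPR, the regulatory subunit, had a mean of 30.1 ± 3.79 TPM.

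**Figure D1:**
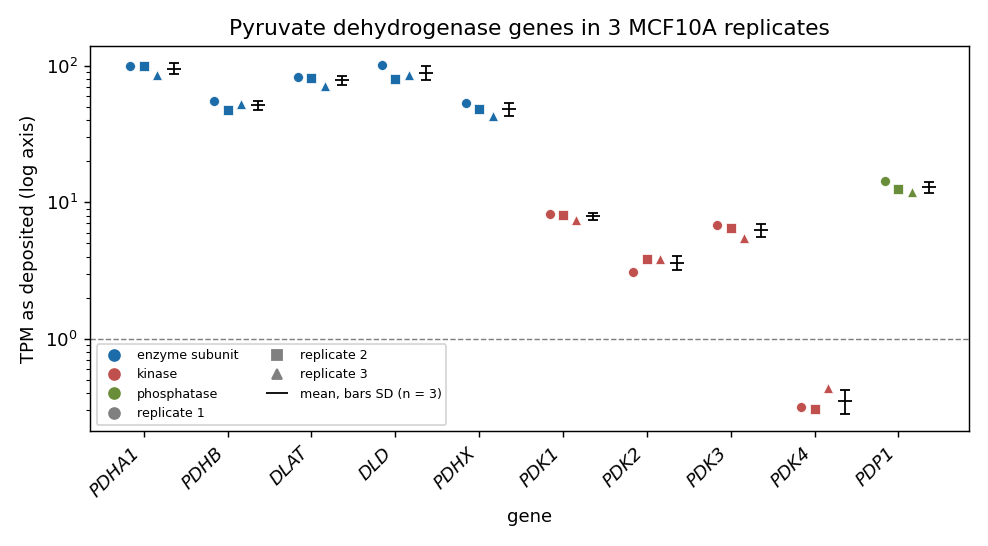
TPM as deposited on a log axis for the 10 genes, with a point for each of the 3 replicates and a black line with bars for the mean and SD, and a dashed line at 1 TPM. The 5 enzyme subunits sit between 43.0 and 100.3 TPM, PDP1 between 11.9 and 14.2 TPM, PDK1, PDK2 and PDK3 between 3.11 and 8.20 TPM, and PDK4 is under 1 TPM in every replicate.

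Among the kinases, PDK1 had the highest TPM, an order with PDK3 that reversed with canonical length, and PDK4 was close to the limit of detection. PDK1 (ENSG00000152256, chr2:172555373-172608669, plus strand) encodes the kinase best known as a target of hypoxia-inducible factor. It had 8.20, 8.07 and 7.39 TPM from 608, 615 and 466 reads, a mean of 7.89 ± 0.437 TPM. PDK3 (ENSG00000067992, chrX:24465244-24550466, plus strand) encodes another kinase of the family and had 6.79, 6.48 and 5.47 TPM from 455, 446 and 312 reads, a mean of 6.25 ± 0.688 TPM. The PDK1 and PDK3 replicates did not overlap in TPM.

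PDK2 (ENSG00000005882, chr17:50094737-50112152, plus strand) encodes a kinase found in most tissues. It had 3.11, 3.85 and 3.86 TPM from only 55, 70 and 58 reads, a mean of 3.61 ± 0.429 TPM. The exact 95% Poisson interval of its first replicate, 2.34 to 4.05 TPM, holds the values of the others. PDK4 (ENSG00000004799, chr7:95583499-95596516, minus strand) encodes the kinase known to be induced by fasting and by fatty acids. It had 0.317, 0.309 and 0.435 TPM, which rest on 6, 6 and 7 reads, a mean of 0.353 ± 0.0706 TPM. The intervals of its replicates ran from 0.113 to 0.896 TPM, all under 1 TPM and all under the PDK2 intervals, and they cover counting error only. PDK1, PDK2 and PDK3 lay within 2.19-fold of each other in TPM, a fold that was 12.7 with canonical length and 8.50 with coding length. In TPM, 11.3% to 22.2% of protein-coding genes at or above 1 TPM lay below them.

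The 250 bases before the RefSeq transcription starts of PDK1, PDK3 and PDK4 are shown because PDK1 and PDK3 held most of the kinase level and PDK4 was the lowest kinase on all 4 length scales, while their upstream windows all hold more CpG than the median window. Which of PDK1 and PDK3 was higher depended on the length, with a log2 ratio of 0.34 in TPM and -2.53 with canonical length. Capitals mark ACGTG or its reverse complement CACGT, a form of the core of the hypoxia response element, on GRCh38.p14. Other forms of that core were not searched or marked. PDK1 is chr2:172555840-172556089 on the plus strand, PDK3 is chrX:24465036-24465285 on the plus strand, and PDK4 is chr7:95596517-95596766 read on the minus strand.
PDK1: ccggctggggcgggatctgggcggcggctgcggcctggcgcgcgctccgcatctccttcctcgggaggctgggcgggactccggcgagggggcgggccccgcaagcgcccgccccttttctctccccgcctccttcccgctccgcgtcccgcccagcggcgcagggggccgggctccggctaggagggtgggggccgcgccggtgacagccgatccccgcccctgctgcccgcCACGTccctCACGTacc
PDK3: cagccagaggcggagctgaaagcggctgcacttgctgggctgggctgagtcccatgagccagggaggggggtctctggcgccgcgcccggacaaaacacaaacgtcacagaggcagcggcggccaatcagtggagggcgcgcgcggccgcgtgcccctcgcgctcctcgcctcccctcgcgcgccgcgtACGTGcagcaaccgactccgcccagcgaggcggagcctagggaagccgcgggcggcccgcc
PDK4: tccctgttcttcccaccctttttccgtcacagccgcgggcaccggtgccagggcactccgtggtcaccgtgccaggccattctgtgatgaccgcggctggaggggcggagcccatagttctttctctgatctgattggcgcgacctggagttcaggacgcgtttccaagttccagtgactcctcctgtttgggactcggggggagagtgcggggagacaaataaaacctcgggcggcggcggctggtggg
The PDK1 window held 2 of these matches, both within its last bases before the start, the PDK3 window held 1 and the PDK4 window held 0. Of all 35116 windows of this length in the RefSeq table, 18.5% held ACGTG on either strand. PDK1 had 79.6% GC and 34 CpG, PDK3 73.6% and 32, and PDK4 62.8% and 19, beside medians of 58% and 11 over all windows. A match describes the letters and is not a measured binding site.

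A window was found for 9 of the 10 members, and all 9 had more CpG than the median window, from 19 to 34. ACGTG was in 6 of the 9, with 3 matches for PDHB, 2 each for PDK1 and PDK2, 1 each for DLAT, PDHX and PDK3, and 0 for PDHA1, DLD and PDK4. The longer CACGTG was in the windows of PDHB and PDK2, 1 time each, and in 6.34% of all windows. It contains both ACGTG and CACGT, so 1 CACGTG was counted as 2 matches. Both PDK2 matches and 2 of the 3 PDHB matches are thus 1 CACGTG each, whereas the 2 PDK1 matches are separate. GGGCGG, the GC box, was in 7 of the 9, with 7 matches for PDK1, and in 42.6% of all windows. AGGTCA, the nuclear receptor element, was in 0 of the 9 and in 12.1% of all windows. TATAAA, the TATA box, was in 0 and in 10.7%, and GTAAACA, a forkhead motif, in 0 and in 2.98%. CCAAT was in the windows of PDHA1, PDHB, DLD, PDK2, PDK3 and PDK4, not in those of DLAT, PDHX and PDK1, and in 32.0% of all windows. All motifs were searched on both strands.

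PDHX shares its upstream region with APIP, a gene of the methionine salvage pathway that is transcribed the other way. The canonical starts of the 2 genes lie 239 bases apart, and the bases between them are shown on the plus strand at chr11:34916380-34916617 of GRCh38.p14, with GGGCGG or CCGCCC in capitals.
APIP-PDHX: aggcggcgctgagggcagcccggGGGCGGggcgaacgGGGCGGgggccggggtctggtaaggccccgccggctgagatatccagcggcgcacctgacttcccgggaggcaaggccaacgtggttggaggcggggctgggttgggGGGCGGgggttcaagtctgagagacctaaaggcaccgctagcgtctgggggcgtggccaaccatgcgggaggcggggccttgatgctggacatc
APIP had 15.8, 14.2 and 13.0 TPM, a mean of 14.3 ± 1.40 TPM, below PDHX in every replicate.

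In TPM the members ran in the order PDHA1, DLD, DLAT, PDHB, PDHX, PDP1, PDK1, PDK3, PDK2 and PDK4. Neighbours were said to differ where the log2 ratio had 1 sign in 3 of 3 replicates and a mean above its SD. By this rule 6 of 9 neighbouring pairs differed, and PDHA1 and DLD, DLD and DLAT, and PDHB and PDHX did not differ beyond their spread. The order was set by the means of the same replicates, so the count describes their spread and does not test the order. The widest steps in TPM were from PDK2 to PDK4, with a log2 ratio of 3.36 ± 0.25, and from PDHX to PDP1, with 1.91 ± 0.05.

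TPM depends on the length by which reads are divided, and for these genes the deposited values use the longest annotated transcript. For 5 members, PDHA1, DLD, PDK1, PDK2 and PDK4, that length is within 1.03-fold of the canonical transcript in GENCODE 44, and for PDHX and PDP1 within 1.06-fold. For PDHB the longest transcript is PDHB-207, a retained-intron transcript of 4459 bases, against 1507 bases for the canonical PDHB-201. PDHB-207 has 3019 bases that lie in introns of PDHB-201. For PDK3 the longest transcript is PDK3-203 with 12720 bases, against 1741 for the canonical PDK3-201, a 7.31-fold difference, and 11333 of its bases lie downstream of the end of PDK3-201. DLAT is also divided by a retained-intron transcript, of 4927 bases against 3878. PDK1 is divided by 14072 bases on both scales, although its coding length is 1308 bases, close to the 1218 bases of PDK3.

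The last 30 bases of the transcripts at issue are shown, with the poly(A) signal AATAAA or ATTAAA in capitals, because the choice of end sets the lengths of PDK1 and PDK3, with PDHB-201 as the canonical end of PDHB. They are GENCODE 44 transcripts in the 5′ to 3′ direction on hg38, with the last base at chr2:172608669 for PDK1-201, chr2:172599137 for PDK1-203, chrX:24534422 for PDK3-201, chrX:24550466 for PDK3-203 and, on the minus strand, chr3:58427630 for PDHB-201.
PDK1-201: tttgATTAAAatcctgcatgttctcctgca
PDK1-203: acactgtaAATAAAtttgaaatttgaataa
PDK3-201: agtgaAATAAAccagacataaaaggacaaa
PDK3-203: tcagaacAATAAAatggtagttgtgattca
PDHB-201: tgataaggAATAAAggaatttctaacatga
Each of the 5 ends held a signal, AATAAA in 4 and ATTAAA in the long PDK1-201. Among 19701 canonical protein-coding transcripts, 57.2% held AATAAA and 13.1% held only ATTAAA in this window. The PDK3 ends lie 16044 bases apart in the genome. PDK1-203 ends earlier than PDK1-201 and has 2990 bases with the same coding length. The gene-level table does not divide reads between these ends.

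When the same reads were divided by canonical length and brought to the same total of 1000000 per replicate, PDHB moved from rank 4 to rank 1 with a level of 124 ± 9.64, and PDK3 from rank 8 to rank 6 with a level of 37.3 ± 3.67. In that scale 7 of the 10 members changed rank, and the order was PDHB, DLAT, PDHA1, DLD, PDHX, PDK3, PDP1, PDK1, PDK2 and PDK4. With coding length 6 members changed rank, PDHA1 was first with a level of 119 ± 3.06, and PDK1, at a level of 36.1 ± 0.671, could not be told from PDHX at 36.1 ± 1.58. With the total exonic length of each gene, a scale added after the data were seen, the order was that of the deposited TPM. PDHX kept rank 5, PDK2 rank 9 and PDK4 rank 10 on all 4 scales. The PDK2 level ran from 2.95 to 4.25 and the PDK4 level from 0.289 to 0.444 over these scales.

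**Figure D2:**
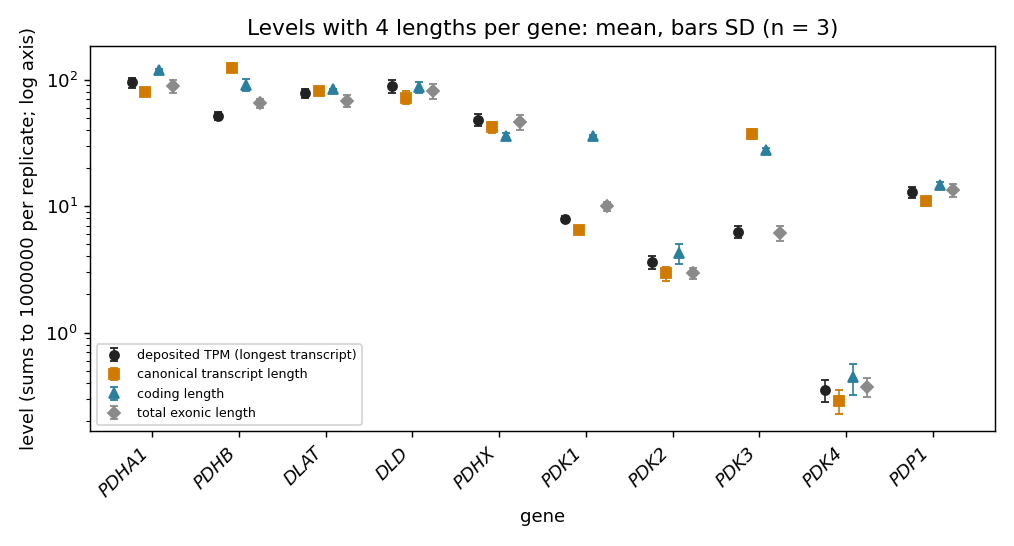
Level, as reads per length brought to a total of 1000000 per replicate, on a log axis for the 10 genes, with 4 symbols per gene for the length that reads were divided by, and bars for the SD over 3 replicates. The symbols of PDHA1, DLD, DLAT, PDHX, PDP1, PDK2 and PDK4 lie close together, while PDHB moves between 51.4 and 124, PDK3 between 6.09 and 37.3, and PDK1 between 6.45 and 36.1.

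The 5 ratios of levels were taken within each replicate, which removes the scaling of the replicate. With 3 replicates the two-sided exact sign-flip permutation test cannot give p below 0.25, so the direction in each replicate and the SD carry the comparison. The log2 ratio of PDHA1 to PDHB in TPM was 0.86, 1.08 and 0.70, a mean of 0.88 ± 0.19, with p = 0.25 by the exact permutation test (0.312 adjusted over 5 ratios). With canonical length it was -0.64 ± 0.19, the opposite direction in 3 of 3 replicates, and with coding and total exonic length 0.39 and 0.44. Which of the E1 subunits had the higher transcript level therefore depended on the length used for PDHB.

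The log2 ratio of DLAT to PDHX in TPM was 0.63, 0.75 and 0.73, a mean of 0.70 ± 0.06, with exact permutation p = 0.25 (0.312 adjusted). It remained above 0 on every scale, with 0.96, 1.22 and 0.57 for canonical, coding and total exonic length. The E2 transcript was thus above that of the E3-binding protein by 1.48-fold to 2.33-fold. The log2 ratio of DLD to DLAT in TPM was 0.28, -0.02 and 0.26, a mean of 0.17 ± 0.17, with exact permutation p = 0.5 (0.5 adjusted). Its mean was close to its SD on this scale, and it was -0.17, 0.04 and 0.26 on the other scales.

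The log2 ratio of PDK1 to PDK3 in TPM was 0.27, 0.32 and 0.43, a mean of 0.34 ± 0.08, with exact permutation p = 0.25 (0.312 adjusted). This pair was picked as the highest and the second kinase by mean TPM in these same replicates. The direction in TPM was thus set by that choice, and the permutation test cannot support it. With canonical length PDK1 was 5.77-fold lower than PDK3, a log2 ratio of -2.53 ± 0.08, and with coding and total exonic length the ratio was 0.38 and 0.72. In TPM, PDK1 made up 43.6% ± 0.818 of the summed kinase level, PDK3 34.5% ± 2.48, PDK2 20.0% ± 2.84 and PDK4 1.97% ± 0.492. With canonical length PDK3 made up 79.3% and PDK1 13.8%, and with coding length PDK1 made up 52.7% and PDK3 40.4%. PDK1 and PDK3 together held most of the kinase level on every scale, and the larger of them differed between scales.

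The summed TPM of the 4 kinases was 18.4, 18.7 and 17.2, and that of PDP1 and PDP2 was 39.4, 36.5 and 35.6. The log2 ratio of kinases to phosphatases was -1.10, -0.96 and -1.05, a mean of -1.04 ± 0.07, with exact permutation p = 0.25 (0.312 adjusted). With canonical length it was 0.61 and with coding length 0.18, each above 0 in 3 of 3 replicates, and with total exonic length -1.08. Against PDP1 alone it was 0.50 in TPM. The kinase sum was below PDHA1 on every scale, with a log2 ratio of -2.39 in TPM and -0.77 with canonical length.

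**Figure D3:**
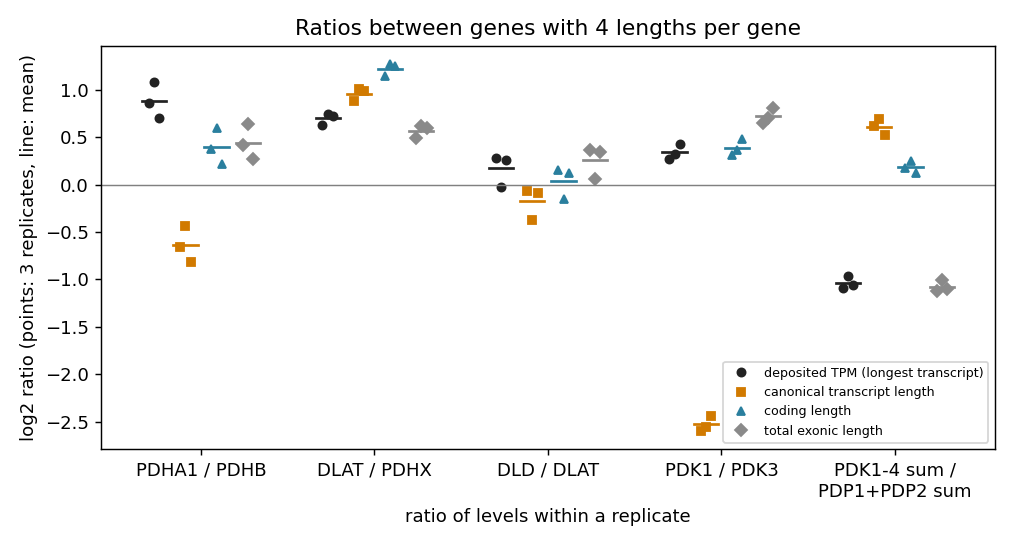
Log2 ratios within each replicate for 5 gene pairs or sums, with 4 symbols for the length used, 3 points per symbol and a short line for the mean. The ratio of DLAT to PDHX stays above 0 throughout, whereas those of PDHA1 to PDHB, of PDK1 to PDK3 and of kinases to phosphatases lie on both sides of 0.

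The replicates of each member were compared by a chi-square test of their reads against equal levels, after scaling each replicate by the median ratio over all genes, with Benjamini-Hochberg adjustment over 15802 genes. The test compares these libraries and not conditions. Of the 10 members, 2 differed at an adjusted p under 0.05, beside 31.2% of all genes tested, so the share among the members was not above that over all genes. DLD differed with an adjusted p of 3.32e-10 and a 1.25-fold range, and PDHB with an adjusted p of 2.78e-07 and a 1.29-fold range. Both were lowest in replicate 2, by -0.21 and -0.19 from the gene mean on the log2 scale, and neither differed when replicate 2 was left out. PDHA1 varied only 1.01-fold, DLAT 1.03-fold and PDK3 1.04-fold after scaling. PDK2 varied 1.47-fold and PDK4 1.66-fold, with adjusted p of 0.224 and 0.683, which at 183 and 19 reads was not a detectable difference. Without the scaling, 6 of the 10 members differed, beside 54.3% of all genes. The median SD of log2(TPM + 1) was 0.136 over the 9 members at or above 1 TPM and 0.19 over 15632 genes at or above 1 TPM. These sets were not matched for level, so the medians do not show that the members were steadier than other genes.

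**Figure D4:**
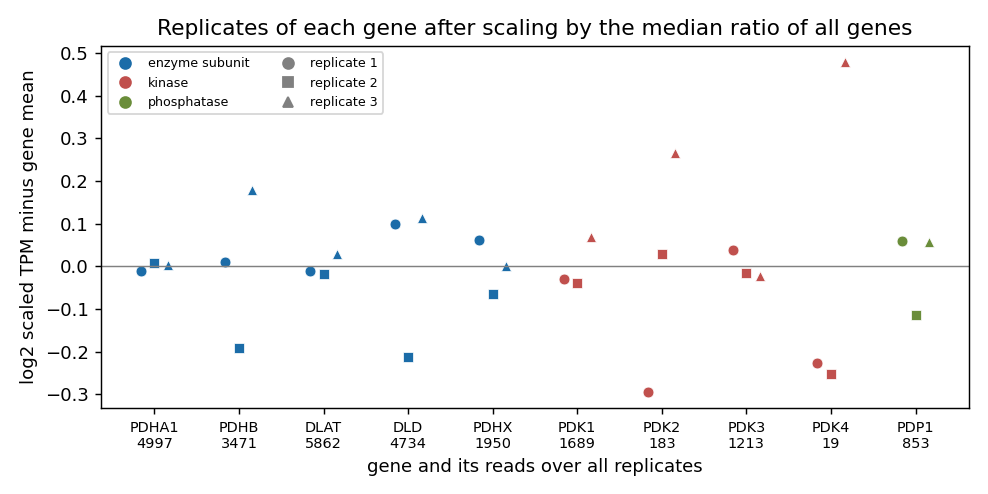
Log2 of the scaled TPM of each replicate minus the mean of the gene, with the reads of the gene over all replicates under its name. PDHA1, DLAT and PDK3 lie within 0.04 of 0, PDHB and DLD drop to -0.19 and -0.21 in replicate 2, and PDK2 and PDK4, with 183 and 19 reads, spread the most.

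No member shares exonic bases of its canonical transcript with a gene on the same strand. On the opposite strand, SAMD14 overlaps 62.8% of PDK2 and MAP3K15 overlaps 28.5% of PDHA1, and each had a mean of 0.013 TPM. PIH1D2 overlaps 25.9% of DLAT and had 1.32 TPM, and the RNA gene ENSG00000272182 overlaps 9.42% of PDHB and had 1.99 TPM. PDK1-AS1 starts within 1000 bases of the PDK1 start on the opposite strand, overlaps 1.83% of PDK1, and had 0.544, 1.19 and 0.640 TPM. The RNA genes MIR378D2HG and MIR378D2 start within 1000 bases of PDP1 on the opposite strand and had means of 0.0667 and 0 TPM. Whether strand was used in counting is not given in the sources used here, so reads of such pairs cannot be assigned with certainty. The processed pseudogenes PDHA1P1 and PDK1P2 had 0 reads in every replicate. PDHA2, the testis-specific paralog of PDHA1, had 0 reads in every replicate, which allows up to 0.415, 0.404 and 0.488 TPM at a limit of 3 reads.

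Of 55 other genes of the pathway, 45 had a mean at or above 1 TPM, against 56.7% of 20046 protein-coding genes. Shares by role were not tested against that share. Among the genes that supply or use pyruvate, 10 of 15 were at or above 1 TPM. PKM, the last enzyme of glycolysis, had 2571 ± 253 TPM. LDHA, which turns pyruvate into lactate, had 2371 ± 218 TPM and was above PDHA1 in 3 of 3 replicates, by 4.64 ± 0.13 on the log2 scale of TPM and by 13.3-fold to 25.0-fold over the 4 length scales. PKM was above LDHA in TPM and with canonical length, and below it with coding length, at 2066 against 2262. The carrier subunits that bring pyruvate into mitochondria, MPC1 and MPC2, had 81.2 ± 4.84 and 74.5 ± 5.64 TPM. With coding length MPC2 was at 185 ± 6.87, above PDHA1, the highest subunit on that scale. On the opposite strand, DCAF6 at 77.7 TPM overlaps 8.37% of MPC2, and reads of this pair cannot be assigned with certainty either. PC, pyruvate carboxylase, which uses pyruvate for oxaloacetate, had 24.7 ± 2.34 TPM, below PDHA1 in 3 of 3 replicates and by 1.94 ± 0.03 on the log2 scale of TPM. That ratio was above 0 on every scale, from 1.74 to 2.97.

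Of the genes listed here for the pathway that builds the lipoyl arm of DLAT, 10 of 10 were at or above 1 TPM. The list is a chosen part of that pathway. Over protein-coding genes the share was 56.7%. The 10 genes ran from 5.98 to 64.4 TPM, and ISCA1, an iron-sulfur assembly factor, had the highest TPM. With canonical length BOLA3 and GLRX5, at 107 and 74.3, were above ISCA1 at 52.6. LIAS, lipoyl synthase, had 12.3 ± 1.68 TPM. The lipoyl transferases LIPT1 and LIPT2 had 6.90 ± 0.310 and 5.98 ± 1.62 TPM, and LIPT2 had 87, 85 and 43 reads. On the opposite strand, MITD1 at 10.1 TPM overlaps 20.7% of LIPT1, and LIPT2-AS1 at 3.36 TPM overlaps 15.4% of LIPT2. The strand setting is not given, so reads of these pairs cannot be assigned with certainty. For the thiamine cofactor of E1, 3 of 4 genes were at or above 1 TPM, beside that 56.7%.

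Among the genes of the sister complexes that share DLD or resemble the complex, 10 of 12 were at or above 1 TPM. Over protein-coding genes the share was 56.7%. DLST, the E2 of the 2-oxoglutarate dehydrogenase, had 172 ± 9.79 TPM and was above DLAT in 3 of 3 replicates, by 1.14 ± 0.03 on the log2 scale of TPM and by 0.79 to 1.14 over the 4 scales. OGDH, its E1, had 137 ± 19.8 TPM, above PDHA1 by 0.53 in TPM but below it, at -0.58, with coding length. DBT, the E2 of the branched-chain complex, had 12.1 ± 0.479 TPM. DLD was below the sum of DLAT, DLST, DBT and GCSH, which are among the lipoyl proteins it serves, with a log2 ratio of -1.59 in TPM. PDHX was not part of this sum. Exons of BCKDHA and AMT, both under 1 TPM, are shared over 93.2% and 100% of their canonical bases with same-strand genes, so a low value there is not taken as a lack of expression. Of the factors and coactivators known to act on the kinase genes, 10 of 11 were at or above 1 TPM, beside that 56.7%. MYC was the highest with 406 ± 72.6 TPM, and the coactivator PPARGC1A was the exception with 0.0937 ± 0.0502 TPM.

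**Figure D5:**
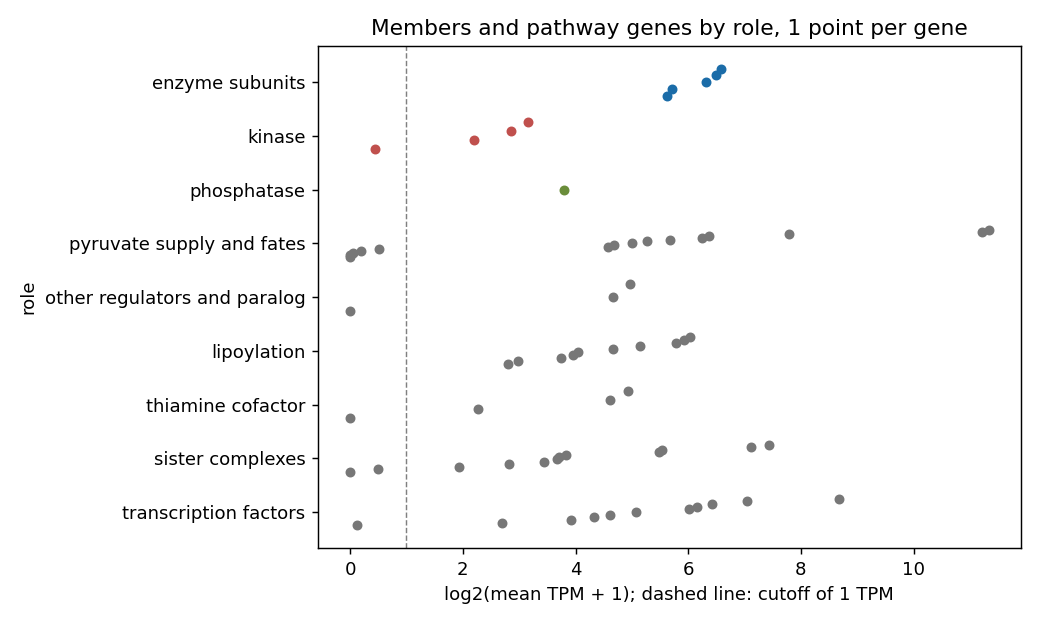
Log2 of the mean TPM plus 1 for the 10 members in colour and the 55 pathway genes in grey, by role, with 1 point per gene and a dashed line at 1 TPM. The enzyme subunits lie together above the kinases in TPM, the lipoylation genes all lie right of the line, and PKM with 2571 TPM is the highest point on this TPM scale.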

How the data were processed

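RNA-seq of 3 replicates of MCF10A cells was used. By the paper's methods and the labels, libraries were made from 300 ng RNA after depletion of ribosomal RNA, and reads were mapped to hg38 and counted with Seq2science. The submitters' processing notes name STAR, fastp, MultiQC and the builds hg38 and GRCh38.p14. Versions, the annotation release and the strand setting are not given in the sources used here. The authors deposited TPM values of 62754 genes, with replicates not pooled, and these were used as they are.

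Gene lengths, types and positions came from GENCODE release 44, which holds 62700 of these identifiers. TPM multiplied by the length of the longest transcript, less 1 base per exon, and divided by its smallest value above 0 gave whole numbers for 100% of these genes within a tolerance of 0.01. These were taken as reads, on the assumption that the smallest step is 1 read. Reads were then divided by canonical, coding or total exonic length. A file of counts was not used here, and no count model was fitted because there is 1 condition.

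The members and gene lists were chosen with earlier results of these data known. The text names all 10 members, the phosphatase genes PDP2 and PDPR, PDHA2, MPC1, MPC2, DLST, OGDH, DBT, LIAS, LIPT1, LIPT2, PC, the highest gene of each role except 1 that is not reported here, and genes that overlap a member or start within 1000 bases of it. LDHA, BOLA3, GLRX5, GCSH, BCKDHA, AMT, PPARGC1A, MITD1, LIPT2-AS1 and DCAF6, the pseudogenes and the markers named are outside this rule or were picked after their values were seen. Lists were counted against a cutoff of 1 TPM.

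Ratios were tested by two-sided exact sign-flip permutation over the 3 replicates. Replicates were compared by a chi-square test of reads over genes with at least 15 reads, scaled by the median ratio over genes with at least 10 TPM, with Benjamini-Hochberg adjustment and a threshold of 0.05. The test was tried on simulated data of the same size, with replicate 3 altered 2-fold for 100 genes and 4-fold for 100. It picked out 99% of the first set, 100% of the second and 0.0512% of 15631 genes left unaltered. These shares were not split by reads per gene, so they do not give the power for genes with few reads, such as PDK4 with 19. Whether the simulated spread matched that of the real libraries, in which 31.2% of genes differed, was not tested. Intervals are exact Poisson intervals at 95%, and intervals and limits cover counting error only. Upstream windows of 250 bases are from RefSeq on GRCh38.p14. The software was scipy 1.17.1, numpy 2.4.6, matplotlib 3.10.9 and pandas 2.3.3 under Python 3.11.15.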

Additional observations from a re-analysis of the deposited data

How the results depend on the processing

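No paired analysis was possible because all 3 samples belong to 1 group. The counts of 9 members and of 45 pathway genes at or above 1 TPM were the same under all 8 alternatives each. The median member level of 30.6 TPM was 35.1 with protein-coding genes rescaled, 39.6 with canonical length and 36.1 with coding length, and 29.0 to 32.1 without 1 replicate. The log2 ratio of PDHA1 to PDHB reversed to -0.64 with canonical length, and was 0.39 with coding length and 0.44 with total exonic length. The ratio of DLAT to PDHX was 0.96, 1.22 and 0.57 on these scales. That of DLD to DLAT reversed to -0.17 with canonical length, and that of PDK1 to PDK3 reversed to -2.53 with canonical length and was 0.72 with total exonic length. The ratio of kinases to phosphatases reversed to 0.61 with canonical length, 0.18 with coding length and 0.50 with PDP1 alone. Without 1 replicate these ratios were 0.78 to 0.97, 0.68 to 0.74, 0.12 to 0.27, 0.29 to 0.38 and -1.07 to -1.01. A pseudocount of 1 turned none of the 5 ratios. The number of members that differed between replicates was 2 with scaling, 6 without it and 0 when only differences over 1.5-fold counted, and 0 to 2 without 1 replicate, with 0 when replicate 2 was left out. Total exonic length and PDP1 alone were added after the data were seen. PDK4, at 6 to 7 reads per replicate, and PDK2, at 55 to 70, are limited by depth.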
